A study of Mus musculus with 12 samples.

Results

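The enzymes that make serine from a glycolytic intermediate and pass one of its carbons to folate were followed by their RNA counts in mouse NIH3T3 cells, an immortalised line of embryonic fibroblasts, in normoxia and in hypoxia. The rows of 9 genes were taken by name from a table of 54446 genes: Phgdh, Psat1 and Psph of serine synthesis, Shmt1 and Mthfd1 of the cytosol, and Shmt2, Mthfd2, Mthfd1l and Aldh1l2 of mitochondria. All 9 passed the filter on low counts that left 14724 genes to test. The 12 samples form 4 groups of 3. Cells of the wild-type line and of ΔN-VEGF (dNVEGF deletion in the labels) were each kept in normoxia or held for 16 h below 0.2% oxygen. ΔN-VEGF cells are NIH3T3 clones in which the N-VEGF coding part, the amino-terminal stretch read from an upstream CUG codon of Vegfa, was first replaced on both alleles by marker cassettes by means of Cas9, after which the cassettes were removed by a recombinase. The sources used here do not say which clone, or how many, went into sequencing, so the effect of the deletion and that of a clone cannot be told apart. The labels speak of triplicates and do not say whether these were separate cultures, so the p-values measure the spread between these samples, which may in part be technical.

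Serine is made in 3 steps from 3-phosphoglycerate: PHGDH oxidises it, PSAT1 adds the amino group and PSPH removes the phosphate. Serine hydroxymethyltransferase, SHMT1 in the cytosol and SHMT2 in mitochondria, then splits serine into glycine and a methylene group on tetrahydrofolate. In mitochondria MTHFD2 and MTHFD1L carry this group on to formate, which leaves for the cytosol, whereas ALDH1L2 burns it to carbon dioxide with a gain of NADPH. In the cytosol the single protein MTHFD1 takes formate up again for purine, thymidylate and methionine synthesis. Several of these genes, among them Phgdh, Psat1, Shmt2, Mthfd2 and Aldh1l2, are known targets of the stress-induced transcription factor ATF4, and the cytosolic branch is known to serve DNA synthesis.

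To show where the counts come from, the genes are placed on the GRCm38 mouse genome as annotated by GENCODE M21. Phgdh lies on the minus strand of chromosome 3 (98313170 to 98339990, 13 exon blocks), Psat1 on that of chromosome 19 (15904678 to 15947337) and Psph on that of chromosome 5 (129765558 to 129787449). Shmt1 is on the minus strand of chromosome 11 (60788104 to 60811718) and Mthfd1 on the plus strand of chromosome 12 (76255298 to 76319803). Of the mitochondrial genes, Shmt2 (127517123 to 127522444, minus), Mthfd1l (3973118 to 4167081, plus) and Aldh1l2 (83487450 to 83534140, minus) are all on chromosome 10, and Mthfd2 is on the minus strand of chromosome 6 (83305691 to 83325908). The counting is not stated to use strand and the library kit does not mark it. Reads of the shared exon bases are therefore uncertain for Psph (452 bases in common with Cct6a), Aldh1l2 (1056 bases with D10Wsu102e), Shmt1 (184 bases with Smcr8), Mthfd1 (37 bases with Gm47525) and Shmt2 (32 bases with Ndufa4l2). The pseudogene Phgdh-ps1 had 1 read in all 12 samples.

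The RefSeq table of promoters (GRCm38.p6) held 8 of the 9 genes, all but Aldh1l2. Psat1 had a window at chr19:15925060-15925309 and another at chr19:15924623-15924872. It was counted where either held a motif, whereas the shares of all promoters are per window. The starts of Psat1 and Mthfd2 used here lie well inside the gene spans given above. The 250 bases before the start are shown for a pair of related genes, the mitochondrial one of which rose and the cytosolic one fell below, Mthfd1l (chr10:3972825-3973074, plus strand) and Mthfd1 (chr12:76254982-76255231, plus strand). Capitals mark matches on either strand to ACGTG or GCGTG, the core that hypoxia-inducible factors are known to bind.
Mthfd1l: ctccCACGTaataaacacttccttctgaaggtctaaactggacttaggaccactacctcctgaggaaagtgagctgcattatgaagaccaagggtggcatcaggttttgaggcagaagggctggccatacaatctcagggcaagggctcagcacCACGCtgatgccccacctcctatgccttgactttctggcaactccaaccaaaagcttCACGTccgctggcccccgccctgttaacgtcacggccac
Mthfd1: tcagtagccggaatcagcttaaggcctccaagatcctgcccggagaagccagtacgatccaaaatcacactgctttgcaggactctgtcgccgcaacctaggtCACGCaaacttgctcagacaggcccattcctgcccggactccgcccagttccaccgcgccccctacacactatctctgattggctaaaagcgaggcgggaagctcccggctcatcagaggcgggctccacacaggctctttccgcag
The Mthfd1l window held ACGTG 246 and 39 bases before the start and GCGTG 96 bases before it, and the Mthfd1 window held GCGTG 147 bases before it, all on the minus strand. ACGTG stood in 2 of the 8 genes' windows (Mthfd1l and Psph) against 16.6% of 32851 promoters of the same length, and GCGTG in 6 of the 8 (not in Mthfd2 or Shmt2) against 28.2%. GGGCGG, a box bound by Sp1, stood in 5 of the 8 (Psph, Mthfd1l, Shmt1, Mthfd1 and a start of Psat1) against 32.7%. TGATGNAA, the composite site to which ATF4 binds with C/EBP partners, and CACGTG, the E-box, which contains ACGTG, stood in 0 of the 8 genes' windows, against 3.45% and 6.02% of all promoters. These are matches of letters in these windows and no more.

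Each sample held 30519052 to 43056690 counts, and TMM scaling factors ran from 0.825 to 1.21. All 8 fibroblast markers were above 1 CPM (read counts scaled to library size, with TMM factors) in every group. Epcam was at 0 in all samples, and Ptprc and Adgre1, which define leukocytes and macrophages, were at or below 0.0685 CPM. The summed CPM of the 5 macrophage and leukocyte markers was 4.87 to 13.02 in normoxia and 35.6 to 59.0 in hypoxia, and Csf1r was 28.8 to 53.8 CPM of this in hypoxia, whereas in normoxia Cd68 exceeded it in replicates 1 and 3 of both lines. The summed epithelial markers were at or below 8.80 CPM, mostly Krt19 at 6.88 to 7.84 CPM in wild-type hypoxia. The 4 endothelial markers summed to at most 8.04 CPM in the other groups and to 20.3 to 25.1 in ΔN-VEGF hypoxia, mostly Cdh5 at 19.4 to 24.4, with Kdr at or below 0.0228. The part of such markers in the results was not tested. Reads over all of Vegfa do not check a deletion within its 5′ part: Vegfa had 82.6, 86.1 and, in replicate 2, 39.4 CPM in wild-type normoxia, 34.2 to 37.3 in ΔN-VEGF normoxia, 272 to 291 in wild-type hypoxia and 419 to 437 in ΔN-VEGF hypoxia. The genes of the hypoxia check all rose in both lines (8 of 8), with log2 fold changes in wild-type cells of 5.42 for Ankrd37 and 5.38 for Car9.

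Replicate 2 of wild-type normoxia stood apart from its group, and this touches every comparison with that group. Over all tested genes its log2 CPM correlated at 0.956 and 0.957 with replicates 1 and 3, which correlated at 0.996 with each other. For 9 of 9 enzymes its level was nearer to the mean of ΔN-VEGF normoxia than to the mean of the other wild-type normoxia samples. For some, such as Phgdh and Psph, it lay beyond both means. The count was 5 of 9 for replicate 1 and for replicate 3. There the mean of the others includes replicate 2, so these counts are no like baseline. Over all tested genes replicate 2 correlated at 0.982 with the mean of ΔN-VEGF normoxia, and replicates 1 and 3 at 0.976 and 0.977. Replicate 2 of ΔN-VEGF normoxia deviated less, with correlations of 0.986 to both others of its group, which correlated at 0.996. The reason was not tested, and values without replicate 2 of wild-type normoxia are given beside many of the results.

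**Figure D1:**
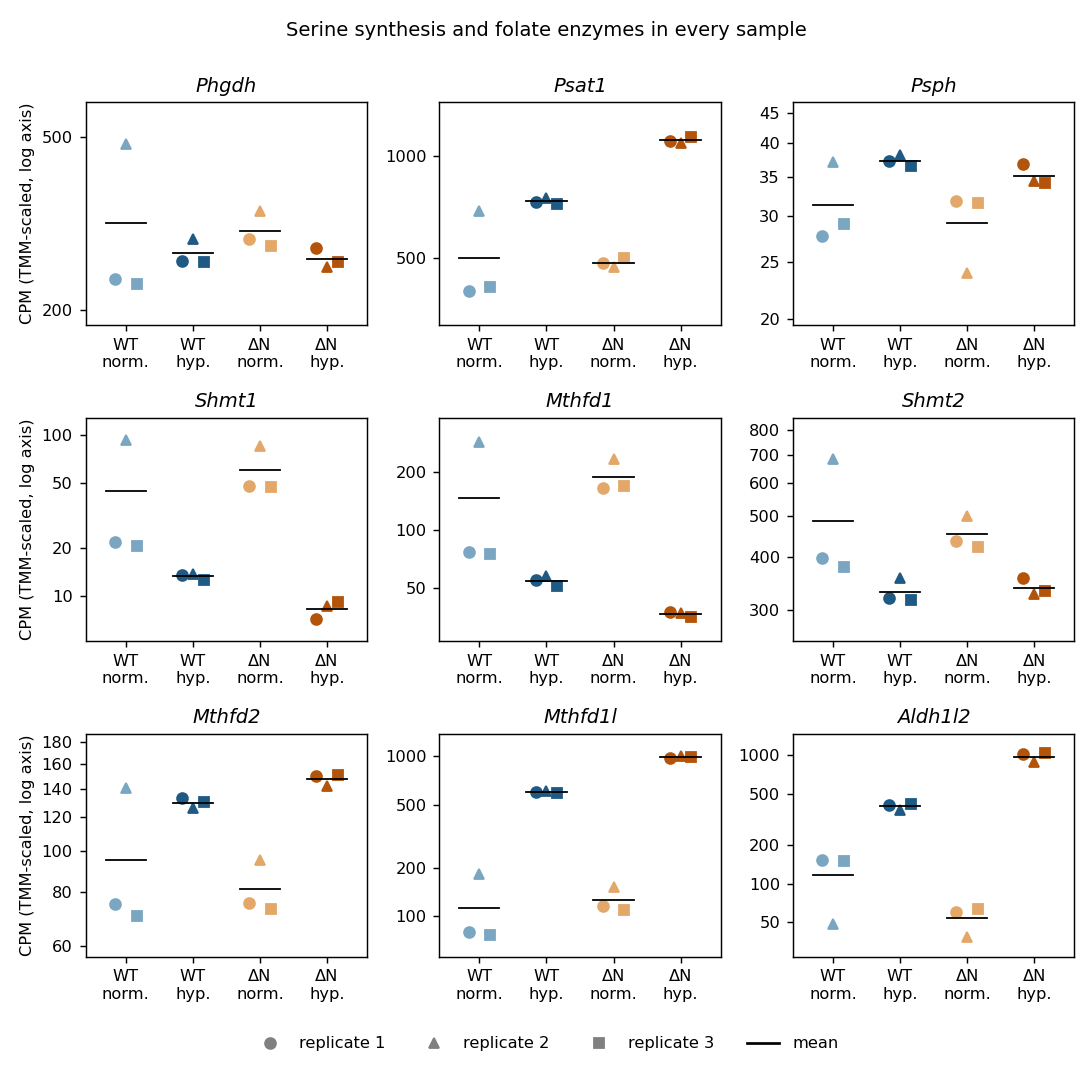
Level of each enzyme gene in every sample, in TMM-scaled CPM on a log axis whose range differs between panels, with 3 replicates per group (circle, triangle and square) and a bar at the group mean. Mthfd1l and Aldh1l2 were higher in hypoxia than in normoxia in all samples of a line, Shmt1 and Mthfd1 were lower, and replicate 2 of wild-type normoxia lay far from replicates 1 and 3 in the panels.

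Compared per length, as CPM divided by exon length in kilobases (RPKM), the order of the enzymes changed with oxygen. In wild-type normoxia Shmt2 (mean 157 RPKM), Phgdh (127) and Psat1 (118) led with overlapping samples. Mthfd1, Mthfd2, Mthfd1l, Aldh1l2, Shmt1 and Psph followed between 32.9 and 7.22, each overlapping with the next. The places of Mthfd1 and Shmt1 there rested on replicate 2. In replicates 1 and 3 Mthfd1 (17.3 and 17.0) was below Mthfd2, Mthfd1l and Aldh1l2, and Shmt1 (5.56 and 5.26) was below Psph. ΔN-VEGF normoxia had the same 3 genes at the top, at 146, 122 and 114 RPKM, also with overlap. In wild-type hypoxia Psat1 led at 173 ± 3.75 (SD, n = 3) and Mthfd1l was second at 135 ± 1.23, above Phgdh (108 ± 7.61) and Shmt2 (107 ± 7.39), which overlapped. In ΔN-VEGF hypoxia Psat1 reached 261 ± 5.67, Mthfd1l 224 and Aldh1l2 130 ± 11.2, with no overlap among these 3, while Shmt1 was last at 2.16 ± 0.270. Hypoxia thus found Mthfd1l and Aldh1l2 above enzymes that had exceeded them in normoxia.

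The first question is which enzymes responded to low oxygen. In wild-type cells 3 of the 9 rose and 3 fell, where 36.5% of all tested genes were called, 18.2% as higher and 18.3% as lower (adjusted p below 0.05, edgeR's quasi-likelihood F test with Benjamini-Hochberg adjustment over the 14724 genes, as everywhere below). In ΔN-VEGF cells 4 rose and 2 fell, where 53.3% of all genes were called, 26.9% as higher and 26.4% as lower. The wild-type count was 2 on leaving out any single wild-type hypoxia sample (26.8% to 28.1% of all genes), and without replicate 2 of wild-type normoxia 8 of the 9 were called there (54.0% of all genes) and 9 of the 9 in ΔN-VEGF cells (67.1%). With at least a 2-fold change, 4 of the 9 remained in wild-type cells (15.7% of all genes) and 5 in ΔN-VEGF cells (27.2%). The samples of the oxygen conditions did not overlap for 6 of the 9 in wild-type cells (45.0% of all genes) and for 9 of the 9 in ΔN-VEGF cells (70.6%). Since much of the transcriptome moved with oxygen, the count by itself sets the 9 genes little apart from it. The median over the 9 genes was 0.25 in wild-type cells and 0.27 in ΔN-VEGF cells, against -0.07 and -0.01 over all genes. The wild-type median was 0.40, the value of Psph, without replicate 2 of wild-type normoxia. RNA came from whole cultures, so fewer cells with a transcript and less of it per cell cannot be told apart.

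Of the 3 mitochondrial enzymes downstream of SHMT2, Mthfd1l and Aldh1l2 rose in both lines and Mthfd2 rose in ΔN-VEGF cells (0.45 with adjusted p = 0.14, edgeR, in wild-type cells). Mthfd1l, the formate-releasing step, had 79.6, 183 and 76.4 CPM in wild-type normoxia and 595, 604 and 594 in wild-type hypoxia. The deletion line had 117, 152 and 110 CPM in normoxia and 976, 1011 and 995 in hypoxia. The conditions were far apart in both lines, and the hypoxic replicates lay within a few percent of each other. Mthfd1l rose by 2.40 ± 0.29 (log2 fold change ± SE, adjusted p = 9.2e-05) in wild-type and by 2.98 ± 0.30 (adjusted p = 1.2e-05) in ΔN-VEGF cells, which is 5.29-fold and 7.87-fold. The wild-type value was 2.94 (adjusted p = 1.1e-09, edgeR) without replicate 2 of wild-type normoxia. Its call held in each of 21 alternative analyses in either line.

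Aldh1l2, the NADPH-yielding exit from the mitochondrial folate pool, had 152, 48.6 and 149 CPM in wild-type normoxia and 409, 378 and 420 in hypoxia. In ΔN-VEGF cells it had 60.5, 38.0 and 63.0 CPM in normoxia, a range that held replicate 2 of wild-type normoxia, and 1017, 882 and 1037 in hypoxia, above all 6 wild-type samples. Among the 9 genes it alone was low, not high, in replicate 2 of wild-type normoxia. Aldh1l2 rose by 1.79 ± 0.35 (3.45-fold, adjusted p = 0.0024, edgeR) in wild-type cells and by 4.18 ± 0.39 (18.2-fold, adjusted p = 6.8e-06) in ΔN-VEGF cells, where it held rank 177 among 14724 genes ordered from the highest change. The wild-type rise was 1.42 (adjusted p = 1.3e-05, edgeR) without replicate 2 of wild-type normoxia. D10Wsu102e, which shares exon bases with it on the other strand, had at most 7877 counts in a sample.

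Mthfd2, the methylene-oxidising step between SHMT2 and MTHFD1L, moved least of these 3. It had 75.3, 140 and 70.5 CPM in wild-type normoxia, 133, 126 and 130 in wild-type hypoxia, 75.7, 95.2 and 73.2 in ΔN-VEGF normoxia and 150, 142 and 151 in ΔN-VEGF hypoxia. The wild-type conditions overlapped through replicate 2 of normoxia alone. Mthfd2 rose in ΔN-VEGF cells (0.86 ± 0.22, adjusted p = 0.0071), and in wild-type cells its value was 0.45 ± 0.22 (adjusted p = 0.14). Without replicate 2 of wild-type normoxia the latter became 0.84 ± 0.10 (adjusted p = 1.9e-05, edgeR).

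Shmt2, which feeds the mitochondrial branch, did not share the rise. Its CPM were 398, 685 and 378 in wild-type normoxia, 321, 358 and 316 in wild-type hypoxia, 436, 500 and 422 in ΔN-VEGF normoxia and 356, 326 and 333 in ΔN-VEGF hypoxia. All hypoxic samples lay below all normoxic samples of their line. Shmt2 fell in wild-type cells, at a log2 fold change of -0.56 ± 0.19 (adjusted p = 0.042, edgeR), and was at -0.42 ± 0.19 in ΔN-VEGF cells (adjusted p = 0.087). The wild-type call was lost on leaving out any of the 9 samples outside wild-type normoxia (adjusted p = 0.051 to 0.13), and without replicate 2 of wild-type normoxia the value was -0.22 (adjusted p = 0.045).

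**Figure D2:**
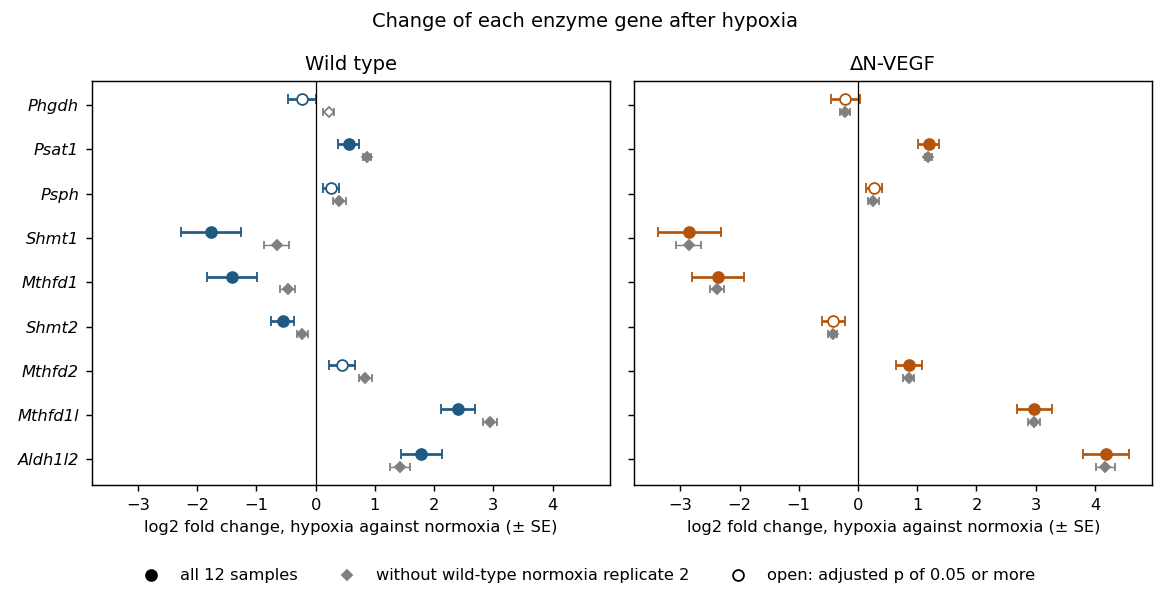
Log2 fold change of hypoxia against normoxia for the 9 genes in wild-type (left) and ΔN-VEGF cells (right), with SE bars, from all 12 samples (large circles) and without replicate 2 of wild-type normoxia (small diamonds); open symbols have an adjusted p of 0.05 or more. Mthfd1l and Aldh1l2 lie farthest to the right and Shmt1 and Mthfd1 farthest to the left in both lines, and without the one library the wild-type values of Shmt1 and Mthfd1 move toward 0.

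The cytosolic enzymes went the other way. Shmt1 had 21.6, 93.1 and 20.4 CPM in wild-type normoxia against 13.5, 13.7 and 12.7 in hypoxia, and in ΔN-VEGF cells 48.0, 85.6 and 47.7 against 7.20, 8.68 and 9.23. Mthfd1 had 76.9, 285 and 75.5 CPM in wild-type normoxia against 55.0, 58.0 and 51.1 in hypoxia, and in ΔN-VEGF cells 165, 235 and 168 against 37.5, 37.1 and 35.5. Replicate 2 was the highest normoxia sample of both lines for both genes, and no hypoxia sample reached any normoxia sample of its line. In ΔN-VEGF cells Shmt1 fell by 2.85 ± 0.53 (7.22-fold, adjusted p = 9.9e-04) and Mthfd1 by 2.37 ± 0.44 (5.16-fold, adjusted p = 9.7e-04), and both calls held in all 21 alternatives. In wild-type cells Shmt1 fell by 1.76 (SE 0.51, adjusted p = 0.019, edgeR) and Mthfd1 by 1.42 (SE 0.43, adjusted p = 0.023). These sizes rested on a single library, since without replicate 2 of wild-type normoxia the falls were 0.66 (value -0.66, adjusted p = 0.02) and 0.47 (value -0.47, adjusted p = 0.0073). Leaving out any single wild-type hypoxia sample ended both wild-type calls, with adjusted p between 0.061 and 0.078.

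Genes of S phase moved with the cytosolic enzymes from sample to sample. The summed CPM of 8 such genes (6 Mcm genes, Pcna and Rrm2) was 520, 2451 and 495 in wild-type normoxia and 1421, 2360 and 1416 in ΔN-VEGF normoxia. In hypoxia it was 649, 679 and 653 in wild-type and 306, 324 and 304 in ΔN-VEGF cells. As for Shmt1 and Mthfd1, replicate 2 of wild-type normoxia was the highest of all samples and ΔN-VEGF hypoxia the lowest group, but wild-type hypoxia was above replicates 1 and 3 of wild-type normoxia for the S phase sum and below them for both enzymes. All 8 S phase genes fell in ΔN-VEGF cells (log2 fold change -3.90 for Rrm2 and -2.94 for Mcm5) and 0 were called in wild-type cells, where without replicate 2 of normoxia 4 rose. Of all genes 53.3% were called in ΔN-VEGF cells, 36.5% in wild-type cells and 54.0% in the latter without that library. The part of cell proliferation in the levels of Shmt1 and Mthfd1 was not tested.

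Of the serine synthesis enzymes, only the middle one was called in hypoxia in the fit of all samples. Psat1 had 402, 690 and 410 CPM in wild-type normoxia, 731, 753 and 722 in wild-type hypoxia, 485, 470 and 501 in ΔN-VEGF normoxia and 1108, 1088 and 1136 in ΔN-VEGF hypoxia. All hypoxic samples were above all normoxic ones in both lines, narrowly so for replicate 2 of wild-type normoxia. Psat1 rose by 0.55 ± 0.17 (adjusted p = 0.027) in wild-type and by 1.195 ± 0.17 (2.29-fold, adjusted p = 1.8e-04, edgeR) in ΔN-VEGF cells. The wild-type call was lost on leaving out replicate 1 or 3 of wild-type normoxia or any single wild-type hypoxia sample (adjusted p = 0.067 to 0.092), and without replicate 2 of wild-type normoxia the rise was 0.86 (adjusted p = 1.6e-07).

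Phgdh, whose product commits 3-phosphoglycerate to serine, had 236, 483 and 230 CPM in wild-type normoxia and 259, 292 and 258 in wild-type hypoxia. ΔN-VEGF cells had 292, 338 and 281 CPM in normoxia and 277, 251 and 257 in hypoxia. Apart from the 1 deviating library all samples lay between 230 and 338 CPM. Its log2 changes were -0.23 ± 0.24 (adjusted p = 0.48) in wild-type and -0.21 ± 0.24 (adjusted p = 0.48, edgeR) in ΔN-VEGF cells. The wild-type value turned to 0.22 without replicate 2 of normoxia, again without a call (adjusted p = 0.059), and in that fit Phgdh was called lower in ΔN-VEGF cells (-0.22, adjusted p = 0.028, edgeR).

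Psph, the last enzyme of the path, was the lowest of these 3 with 27.7, 37.1 and 29.0 CPM in wild-type normoxia and 37.2, 38.1 and 36.4 in hypoxia. ΔN-VEGF cells had 31.9, 24.0 and 31.6 CPM in normoxia and 36.8, 34.4 and 34.1 in hypoxia. Its log2 changes of 0.25 ± 0.13 (adjusted p = 0.17) and 0.27 ± 0.14 (adjusted p = 0.12, edgeR) were not called in the fit of all samples. Psph was called in both lines without replicate 2 of wild-type normoxia, at 0.40 (adjusted p = 0.0076) and 0.26 (adjusted p = 0.031, edgeR). Part of its reads may belong to Cct6a, which had up to 20019 counts in a sample and shares exon bases on the other strand.

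Ratios of a mitochondrial to a cytosolic enzyme within the same library need no scaling between libraries, and 3 were compared on the log2 scale of read counts. The Mthfd1l to Mthfd1 ratio was 0.05, -0.64 and 0.02 in wild-type normoxia and 3.44, 3.38 and 3.54 in wild-type hypoxia. The deletion line had -0.50, -0.63 and -0.62 in normoxia and 4.70, 4.77 and 4.81 in hypoxia. A near balance of reads in normoxia thus stood against 10.9 and 27.1 reads of Mthfd1l per read of Mthfd1 in hypoxia. The mean Shmt2 to Shmt1 ratio in wild-type cells was 3.76 ± 0.77 (SD, n = 3) before and 4.64 ± 0.07 after hypoxia, and ΔN-VEGF cells had 2.96 ± 0.36 and 5.34 ± 0.25. The mean Mthfd2 to Mthfd1 ratio was -0.38 ± 0.55 and 1.25 ± 0.12 in the wild-type line, against -1.21 ± 0.09 and 2.01 ± 0.08 in the deletion line. Hypoxia minus normoxia within line was 4.49 for Mthfd1l to Mthfd1, 2.43 for Mthfd2 to Mthfd1 and 1.63 for Shmt2 to Shmt1. Each had p = 0.005, the smallest that a two-sided exact permutation test over 400 relabellings within line can give, and an adjusted p of 0.01 over the 6 ratio tests. Between the lines the means differed in opposite directions, since ΔN-VEGF cells had the lower mean in normoxia and the higher in hypoxia for all 3 ratios. The test of the lines pooled over both conditions averages these and is not informative, and the line difference within a single condition was not tested.

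**Figure D3:**
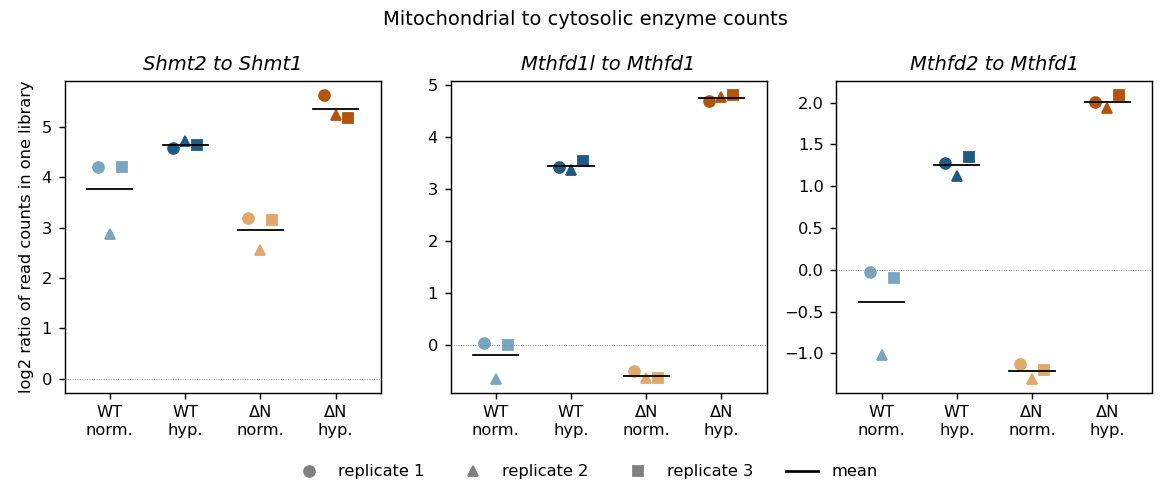
Log2 ratio of the read counts of a mitochondrial to a cytosolic enzyme gene in each library, for 3 pairs of genes and 4 groups of 3 samples, with a bar at each mean and a dotted line at equal counts. All hypoxia samples lie above all normoxia samples in the 3 panels, and ΔN-VEGF cells have the lowest normoxia and the highest hypoxia means.

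The second question is whether the deletion line differed from wild-type cells before hypoxia. None of the 9 genes was called in normoxia (0 of 9, edgeR, where 4.36% of all genes were called, 1.39% as higher, 2.97% as lower and 2.17% with a 2-fold change; the DESeq2 Wald test called 1, Aldh1l2, and 8.16% of all genes). The values ran from -1.11 ± 0.35 for Aldh1l2 (adjusted p = 0.10) to 0.42 ± 0.49 for Shmt1 (adjusted p = 0.69), and wild-type and ΔN-VEGF samples overlapped for all 9, against 16.3% of genes without overlap in the table. Taken by replicate number, a pairing read from these data, Aldh1l2 was lower in ΔN-VEGF cells in 3 of 3 pairs (60.5 against 152 CPM, 38.0 against 48.6 and 63.0 against 149). The share of all genes with 3 such pairs was not counted. With the replicate as a block the value of Aldh1l2 was -1.05 (adjusted p = 0.067, edgeR). This comparison turned on replicate 2 of wild-type normoxia. Without it 6 genes were called higher and 1 lower in ΔN-VEGF cells, where 48.9% of all genes were then called. Shmt1 was then at 1.54 ± 0.22 (adjusted p = 1.3e-04), Mthfd1 at 1.33 ± 0.13 (adjusted p = 1.3e-05), Mthfd1l at 0.71 ± 0.11 (adjusted p = 3.0e-04) and Aldh1l2 at -1.47 ± 0.16 (adjusted p = 2.1e-05, edgeR). The S phase genes stood with them: 8 of 8 were higher in ΔN-VEGF normoxia in that fit, and 0 in the fit of all samples. The log2 fold changes of Phgdh, Psat1 and Shmt2 in that fit were 0.39, 0.27 and 0.23, and those of Psph and Mthfd2 were not called.

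The third comparison set the lines side by side in hypoxia. Aldh1l2 (1.28 ± 0.35, 2.43-fold, adjusted p = 0.025) and Psat1 (0.59 ± 0.17, 1.51-fold, adjusted p = 0.034, edgeR) were higher in ΔN-VEGF cells, 2 of 9 where 20.1% of all genes were called, 10.8% as higher and 9.36% as lower. With a 2-fold change 1 remained, Aldh1l2 (6.81% of all genes). Samples of the lines did not overlap for 6 of the 9, where this held for 59.8% of all genes. Of the remaining genes without overlap, Mthfd1l was at 0.73 ± 0.28 (adjusted p = 0.089), Mthfd2 at 0.19 ± 0.22 (adjusted p = 0.61), Shmt1 at -0.66 ± 0.51 (adjusted p = 0.41) and Mthfd1 at -0.58 ± 0.42 (adjusted p = 0.38). Phgdh, Psph and Shmt2 were within 0.09 of 0. The hypoxia groups have small spreads of their own, and the fit shares the spread of the normoxia groups with them. In a fit of these 6 samples alone 6 of the 9 were called, where 57.0% of all genes were, with the log2 fold changes nearly as before (Mthfd1l 0.73, Shmt1 -0.67, Mthfd1 -0.58). In the fit without replicate 2 of wild-type normoxia 5 of the 9 were called, where 42.4% of all genes were, with Mthfd1l (adjusted p = 8.4e-05), Mthfd1 (0.0018) and Shmt1 (0.02, edgeR) added. The call of Aldh1l2 was lost on leaving out any single hypoxia sample (adjusted p = 0.055 to 0.082). That of Psat1 was lost on leaving out any of these or replicate 1 or 3 of ΔN-VEGF normoxia (adjusted p = 0.054 to 0.11).

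The difference between the responses was tested directly as the interaction of line and oxygen. Aldh1l2 responded more strongly in ΔN-VEGF cells by 2.40 ± 0.49 on the log2 scale (5.27-fold, adjusted p = 0.029, edgeR), 1 of 9 where 3.36% of all genes were called (2.21% as higher, 1.15% as lower) and 1.56% with a 2-fold difference. Wild-type normoxia replicates 1 and 3, but not replicate 2, were above all ΔN-VEGF normoxia samples for this gene, and in hypoxia all ΔN-VEGF samples were above all wild-type ones. The call was lost on leaving out 10 of the 12 samples in turn (adjusted p = 0.065 to 0.09), kept without replicate 2 of ΔN-VEGF normoxia, and became firmer without replicate 2 of wild-type normoxia (2.75 ± 0.22, adjusted p = 1.3e-06). The other 8 ranged from -1.09 ± 0.71 for Shmt1 (adjusted p = 0.41) to 0.64 ± 0.24 for Psat1 (adjusted p = 0.17). Without replicate 2 of wild-type normoxia 5 of the 9 were called, where 44.4% of all genes were. Shmt1 was then at -2.20 ± 0.30 and Mthfd1 at -1.90 ± 0.18, the falls in ΔN-VEGF cells being the deeper ones. Psat1 (0.32) and Phgdh (-0.44) were the other called genes, and Mthfd1l was at 0.02 ± 0.15 (adjusted p = 0.91). In that fit 8 of 8 S phase genes (median -2.68) and 8 of 8 purine synthesis genes (median -1.02) also had a lower interaction.

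Across the 12 samples the enzymes fell into groups that the compartments only in part describe. The log2 CPM of Shmt1 and Mthfd1 correlated at 0.995, Psat1 and Mthfd1l at 0.952, and Psat1 and Mthfd2 at 0.914. Shmt2 went with the cytosolic pair (0.889 with Shmt1, 0.898 with Mthfd1) rather than with Mthfd1l (-0.570), and Aldh1l2 opposed both cytosolic enzymes (-0.974 and -0.972). The genes of 8522 above a mean of 10 CPM whose pattern was most like that of Phgdh were Dpp9 (0.973), Tbrg4 (0.973), Stip1 (0.972), Slc35a4 (0.968) and Tor1a (0.967). Those most like Mthfd2 were Cyp20a1 (0.985), Lmf2 (0.980), Seh1l (0.978), Ppp4r1 (0.977) and Rabggtb (0.976). These are Pearson correlations over 12 samples that share 4 conditions and 1 deviating library, given as a description.

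The genes around the pathway were taken from lists on folate transport, the use of serine and glycine, and the processes that consume folate units. Over all genes 18.2% were called higher and 18.3% lower in wild-type and 26.9% and 26.4% in ΔN-VEGF cells, against which the counts of the lists are to be read. Of 7 genes for folate carriers and retention, 1 rose and 1 fell in wild-type and 1 rose and 2 fell in ΔN-VEGF cells. The mitochondrial folate carrier Slc25a32 fell in both, with log2 fold changes of -0.98 and -0.79. The reduced folate carrier Slc19a1 rose by 1.61 in ΔN-VEGF cells, from 35.7 to 58.1 CPM in normoxia to 130 to 137 in hypoxia, and was at 0.52 (adjusted p = 0.28, edgeR) in wild-type cells, or at 1.23 (adjusted p = 4.8e-05) without replicate 2 of normoxia. Folr1 was called in wild-type cells (1.41) at a level below 0.5 CPM.

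Of 7 other folate-converting enzymes, 2 rose and 1 fell in wild-type and 1 rose and 2 fell in ΔN-VEGF cells. Mthfd2l, the mitochondrial relative of Mthfd2, fell by 1.02 in wild-type and by 1.04 in ΔN-VEGF cells, and the wild-type value was -0.67 without replicate 2 of normoxia. Mthfs, at or below 0.331 CPM, rose by 1.48 in wild-type cells (0.83 in ΔN-VEGF cells, adjusted p = 0.14, edgeR). Tyms, thymidylate synthase, fell by 2.86 in ΔN-VEGF cells and was at -1.08 (adjusted p = 0.11, edgeR) in wild-type cells, or 0.00 without replicate 2 of normoxia. Aldh1l1, the cytosolic relative of Aldh1l2, stayed at or below 1.16 CPM in all samples and had no call. Without replicate 2 of wild-type normoxia Aldh1l1 was called lower in hypoxia in both lines (-1.27 and -1.08, adjusted p = 0.0016 and 0.016, edgeR) and lower in ΔN-VEGF than in wild-type normoxia (-1.48, adjusted p = 7.0e-04).

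The glycine cleavage system was barely expressed at its decarboxylase step: Gldc stayed at or below 0.213 CPM and was not tested. Gcsh, its carrier protein, fell in both lines (by 1.27 and 1.97, with -0.64 in wild-type cells without replicate 2 of normoxia), Amt rose in ΔN-VEGF cells by 1.39, and Dld fell there by 0.54. Of 10 genes for serine and glycine transport and use, 1 rose and 4 fell in wild-type and 3 rose and 3 fell in ΔN-VEGF cells. Slc1a4, which carries serine and alanine across the plasma membrane, rose by 1.22 and 2.43. Sfxn1, the mitochondrial serine carrier, fell by 0.51 and 0.83, and its relative Sfxn2 by 1.39 and 1.01. Their wild-type values without replicate 2 of normoxia were -0.27 and -0.92. Another relative, Sfxn3, went the other way, with log2 fold changes of 0.29 (wild-type) and 1.32 (ΔN-VEGF) in the fit lacking that library. Mean Sfxn3 levels were 113 CPM before and 166 CPM after hypoxia for the wild-type line, and 95.5 and 240 CPM for the deletion line. After hypoxia Sfxn1 was lower than Sfxn3, at means of 36.2 and 31.0 CPM. Slc6a9, a glycine transporter, rose in ΔN-VEGF cells by 1.59.

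Among the processes that consume folate units, more genes were called lower than higher. Of 8 purine synthesis genes, 4 fell and 0 rose in wild-type cells and 7 fell and 0 rose in ΔN-VEGF cells, with medians of -0.94 and -1.41 against -0.07 and -0.01 over all genes, of which 18.3% and 26.4% were called lower. Gart, which uses formyl-folate, fell by 1.52 and 2.19, and Ppat, the committing enzyme, by 1.45 and 2.30. Without replicate 2 of wild-type normoxia 5 of the 8 fell in wild-type cells, where 54.0% of all genes were called in either direction, by smaller amounts (median -0.39, Gart -0.74, Ppat -0.66). Of 7 tested genes of the methionine cycle and transsulfuration, 3 fell in each line, among them Mat2a (by 1.17 and 1.64) and Ahcy (by 1.02 and 1.54), while Cth rose in ΔN-VEGF cells by 0.59. In wild-type cells 4 of the 7 fell without replicate 2 of normoxia, against the same 54.0% of all genes, with Mat2a at -0.53 and Ahcy at -0.56. Bhmt had no counts.

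Among glycolytic genes and stress genes the direction was up. All 5 genes of the glycolytic steps around 3-phosphoglycerate rose in both lines, Gapdh by 2.59 and 2.44, Pgk1 by 2.56 and 1.93 and Pgam1 by 2.35 and 2.23 (3.00 in wild-type cells without replicate 2 of normoxia). Phgdh, which draws on the product of Pgk1, was not called beside them. All 8 genes of the list of ATF4 and other genes it is known to induce rose in both lines, with medians of 1.36 and 2.81. Atf4 rose by 0.99 and 1.54, Trib3 by 2.73 and 4.78, and Ddit3 by 2.54 and 4.37. The summed CPM of the list was 743 to 759 in wild-type normoxia, 593 to 644 in ΔN-VEGF normoxia, 1598 to 1615 in wild-type hypoxia and 2538 to 2629 in ΔN-VEGF hypoxia. The group means of Aldh1l2, Psat1 and Mthfd2 had the same order, but so had those of Vegfa and Ndrg1, which are not in the list. For Aldh1l2 the samples of the lines overlapped in normoxia. Of the enzymes known as ATF4 targets, Psat1 and Aldh1l2 rose in both lines, Mthfd2 in ΔN-VEGF cells, and Phgdh and Shmt2 in neither. Myc, another regulator of one-carbon genes, rose by 0.66 and 0.67. Whether ATF4 or Myc acted on the enzymes was not tested.

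**Figure D4:**
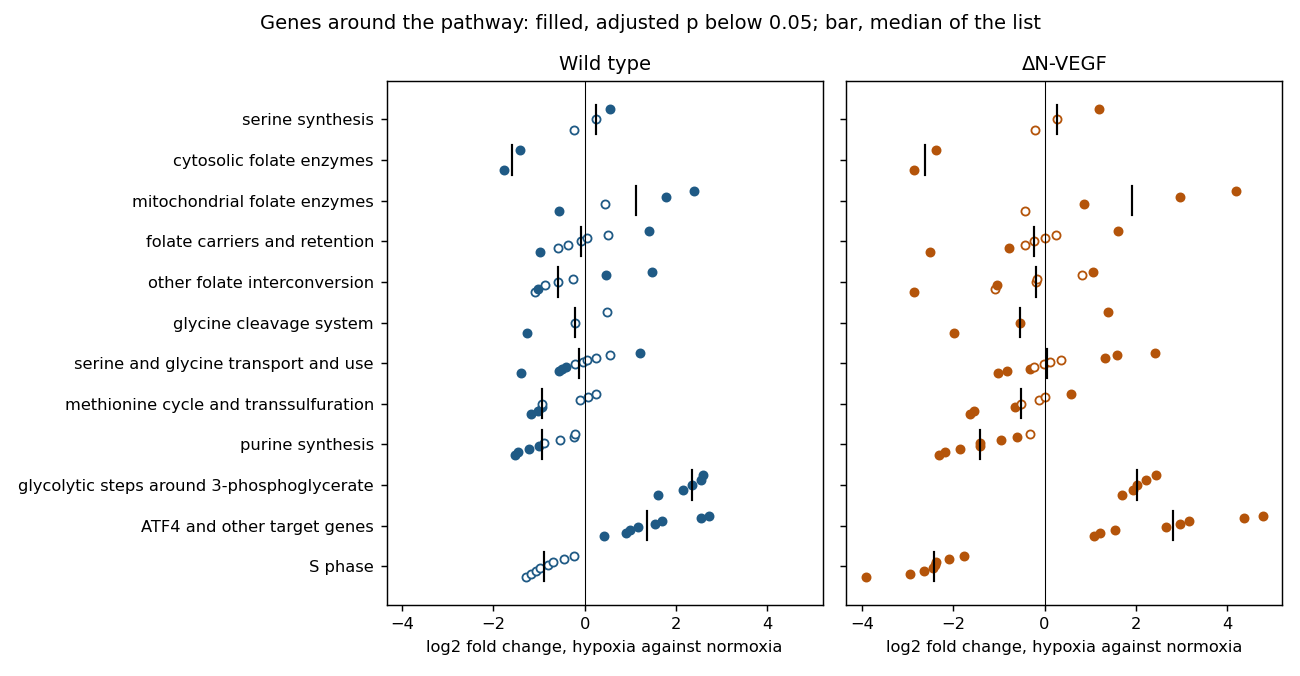
Log2 fold change of hypoxia against normoxia for the genes of 12 lists in wild-type (left) and ΔN-VEGF cells (right), with 1 point per gene, filled where the adjusted p is below 0.05, and a bar at the median of the list. The glycolytic and ATF4 lists lie wholly to the right of 0 and purine synthesis wholly to the left in both lines, while the S phase genes are filled in ΔN-VEGF cells alone.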

How the data were processed

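RNA-seq of 12 samples was used. The authors made TruSeq v2 libraries from total RNA, trimmed reads (Trim Galore, cutadapt 1.10), aligned them to GRCm38.p6 (TopHat2 2.1.0, Bowtie2 2.2.6) and deposited raw counts of reads per gene from HTSeq 0.6.1, unfiltered and unscaled, with versions as in the submitters' processing notes and the strand setting not given in the sources used here. Groups and replicate numbers came from the labels. Counts were compared with edgeR 4.0.16 (limma 3.58.1, R 4.3.3): filterByExpr, TMM, 1 mean per group over 12 samples, quasi-likelihood F test, Benjamini-Hochberg adjustment, called at adjusted p below 0.05. RPKM used GENCODE M21 exon lengths, and log2 CPM a prior count of 2. The 9 genes and the lists were chosen with earlier results of these data known. Beside the 9, named genes are 10 preset ones and, per list, the called genes with the 2 largest rises and falls in each hypoxia comparison. Some of these are not reported here. The code was tested on simulated data. Alternatives were DESeq2 1.42.0, scalings, filters, left-out samples, smaller fits and a replicate block. Same-numbered samples deviated together between the lines in normoxia (correlations 0.378, 0.498 and 0.355), so their numbers were taken to pair them there. This pairing comes from the data, since no label says what a number stands for, and the other comparisons had pairs under 0.1.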

Additional observations from a re-analysis of the deposited data

Results flagged for a closer look

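A test of the interaction found a response to hypoxia that differed between the lines for 1 of the 9 enzymes, Aldh1l2, with a difference of 2.40 on the log2 scale, a call that was lost on leaving out any 1 of 10 of the 12 samples (adjusted p from 0.065 to 0.09, edgeR). Among the genes of the surrounding lists, which were picked here by that test, the response was larger in ΔN-VEGF cells for the serine carrier Slc1a4 by 1.2 and for 4 genes of the ATF4 list: Atf5 by 2.0, Ddit3 by 1.83, Sesn2 by 1.27 and Asns, which makes asparagine, by 0.66. Adjusted p ran from 0.002 (Atf5) to 0.037 (Ddit3) by edgeR's quasi-likelihood test, which called 3.36% of all genes. Without replicate 2 of wild-type normoxia, where 44.4% of all genes were called, the same differences were 2.75 for Aldh1l2, 1.33 for Slc1a4, 2.16 for Atf5, 2.16 for Ddit3, 1.38 for Sesn2 and 0.64 for Asns. Single samples were not tested for outlying values, since each group has 3.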

How the results depend on the processing

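The 6 calls among the 9 genes for hypoxia in ΔN-VEGF cells ran from 5 to 9 over the 22 alternatives, and the share of all genes called ran from 25.3% to 71.4%. In wild-type cells the 6 calls became 2 to 8 with a sample left out, 2 in a fit of only the 6 samples compared (23.8% of all genes) and 1 (Mthfd1l) when that fit had the replicate block (13.3%). Between the lines in normoxia, 0 became 1 by DESeq2, 0 to 7 with a sample left out and 7 without both normoxia samples numbered 2, where 53.6% of all genes were called. In hypoxia, 2 became 0 with total counts only (26.8% of all genes), 1 with a 2-fold change, 0 to 5 with a sample left out (10.1% to 13.7% where it was 0, 42.4% where it was 5), and 6 without both normoxia samples numbered 2 (55.8% of all genes), in the 6-sample fit (57.0%) and in that fit with the block (61.1%). For the interaction, 1 became 0 to 5 with a sample left out and 7 without both samples (52.8%). The highest of each left-out range was without replicate 2 of wild-type normoxia, the lowest without another sample, and otherwise the cause was not tested. A replicate block over all 12 samples changed no count, and it turned Phgdh in the interaction to -0.017. With pairs, the ratio differences of 1.63, 4.49 and 2.43 had an adjusted p of 0.0625 by a sign-flip test that cannot go lower.

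Some signs turned. Total counts only, which moved the median of all genes to -0.30 and -0.41 in the hypoxia comparisons, gave Psph -0.14 in ΔN-VEGF cells, Shmt2 -0.19 and Mthfd2 -0.035 between lines in hypoxia, and Phgdh -0.19, Psph -0.18 and Shmt2 -0.066 in the interaction. No low-count filter gave Phgdh 0.017 and Psat1 0.033 in normoxia, and Phgdh -0.061 and Psph -0.069 in the interaction. Without both normoxia samples numbered 2, Phgdh was 0.22 for hypoxia in wild-type cells, line differences in normoxia were Phgdh 0.31, Psat1 0.29, Psph 0.17, Shmt2 0.15 and Mthfd2 0.041, and the interaction was Phgdh -0.35, Psph -0.26 and Shmt2 -0.12. All of these but Shmt2 and Mthfd2 were called there (adjusted p = 2.5e-04 to 0.037, edgeR). The 6-sample fit with block gave Phgdh 0.034 and Psat1 0.0089 in normoxia.

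With a sample left out, Phgdh ran from -0.42 to 0.22 for hypoxia in wild-type cells, from -0.24 to 0.39 between lines in normoxia, from -0.085 to 0.016 between them in hypoxia and from -0.44 to 0.20 in the interaction. Line differences in normoxia ran from -0.18 to 0.27 for Psat1, -0.18 to 0.052 for Psph, -0.26 to 0.23 for Shmt2, -0.41 to 0.17 for Mthfd2 and -0.057 to 0.71 for Mthfd1l. Shmt2 ran from -0.0076 to 0.088 between lines in hypoxia and from -0.20 to 0.29 in the interaction, and Psph from -0.14 to 0.093 there. Line differences of ratios, which average opposite differences in normoxia and hypoxia and so say little, ran from -0.27 to 0.060 (Shmt2 to Shmt1) and -0.19 to 0.056 (Mthfd2 to Mthfd1).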
